A study of Mus musculus with 24 samples.

Results

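The late response described here is that of neurons from the medial ganglionic eminence (MGE) of mice that lack Npas4, measured after 6 h of depolarization and compared with silenced cultures of the same genotype. The arrays were chosen by their labels, MGE cultures of genotype Npas4 KO at 6 h (2 arrays) and at 0 h (2 arrays), which makes 4 of the 24 arrays in the series. The whole study compared MGE-derived and cortex-derived (CTX) neurons, Npas4 wild-type (WT) and KO, at 0, 1 and 6 h of depolarization, with 2 arrays in each of 12 groups. All cultures came from littermate C57Bl/6 embryos at embryonic day 14 and were kept for 10 days. All of them, the 0 h cultures included, were silenced overnight with TTX, a sodium channel blocker, and AP-5, an NMDA receptor blocker. The 6 h cultures were then depolarized with 55 mM extracellular KCl for 6 h, whereas the 0 h cultures received the silencing only. The labels do not say how many embryos a culture came from, whether embryos were pooled, or whether repeats 1 and 2 were separate cultures, so p-values measure only the spread between arrays. Intensities of an Affymetrix mouse genome array were put on a log2 scale, and all levels and changes below are on that scale.

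Depolarization with KCl opens voltage-gated calcium channels, and the calcium that enters activates kinases and phosphatases that act on transcription factors such as CREB, SRF and MEF2. A first wave of genes, many of them transcription factors of the Fos, Egr and Nr4a families, is transcribed within minutes without new protein synthesis. A later wave encodes secreted peptides, channels, receptors and synaptic proteins, and differs between types of neuron. Npas4 is a member of the first wave, a bHLH-PAS factor that is induced by calcium entry and that regulates inhibitory synapses. The MGE is the embryonic source of the somatostatin and parvalbumin interneurons of the cortex.

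Npas4, the targeted gene, gave a low signal in the KO cultures. The silenced MGE KO arrays read 5.67 and 5.36, the 1 h arrays 7.34 and 7.003, and the 6 h arrays 7.07 and 6.80. The matching MGE WT arrays read 5.70 and 5.84 silenced, 12.04 and 11.20 after 1 h, and 9.32 and 8.59 after 6 h. In the CTX cultures it lay between 5.78 and 7.82 in the 6 KO arrays and reached 12.03 in WT. The KO arrays at 6 h were thus above both KO arrays at 0 h and below both WT arrays at 6 h, and the rise of 1.43 ± 0.25 (SE) in MGE KO passed the test. The sources used here do not give the position of the probe set relative to the deletion, so this signal checks the labels only in part.

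The MGE label was checked against marker genes. The messenger RNAs of the interneuron peptides Sst (13.98 and 13.93) and Npy (13.56 and 13.63), of the GABA-synthesizing enzyme Gad1 (12.70 and 12.72) and of the MGE transcription factor Lhx6 (13.03 and 13.07) were all high in the KO arrays at 0 h, where the median array value was about 6.88. The excitatory transmitter transporter Slc17a7 (mean 5.27) and the cortical factors Neurod6 (3.57) and Tbr1 (4.08) were below that value. Of the 13 excitatory markers tested, 9 had means below it at both 0 and 6 h. The related transporter Slc17a6 differed widely between arrays of a group. Its change from 0 to 6 h ran from -2.61 to 2.24 when single arrays were left out. Averaged over the 13 excitatory markers tested, the level was between 6.62 and 7.13 in the 4 arrays, against 11.08 to 11.31 in the CTX KO arrays at 0 and 6 h. Glial markers were present, with astrocyte means of 9.86 to 10.15 and microglial means of 7.16 to 7.96. The 2 arrays of a group correlated at 0.982 (0 h) and 0.988 (6 h) across genes in MGE KO, with 358 and 254 genes over 2-fold apart. In the WT comparison group at 0 h they correlated at 0.951 and 1507 genes were over 2-fold apart. There, repeat 2 stood apart from the other 3 silenced MGE arrays, while repeat 1 was within 2-fold of MGE KO repeat 1 for all but 10 genes (r = 0.998).

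Of 12378 genes tested, 599 were higher and 1519 lower at 6 h than at 0 h in MGE KO cultures, at an adjusted p under 0.05 in limma with Benjamini-Hochberg adjustment. These genes, called below, were 17.1% of all genes tested (4.84% higher and 12.3% lower). Among them 245 (1.98%) had risen over 2-fold and 569 (4.60%) had fallen over 2-fold, and 50 rose and 30 fell over 4-fold. The largest measured rise was that of Nr4a1, 31.8-fold from a level below the median array value, where a signal is not shown to be above background, so this fold is approximate. Falls were thus more numerous than rises, except among changes over 4-fold. The median change over all genes was -0.07. The 6 h arrays lay wholly above the 0 h arrays in 2681 genes (21.7%) and wholly below them in 4685 (37.8%), so arrays that do not overlap are common here. Each of the 4 arrays carried weight, since leaving one out gave 1008 to 1470 calls (1008 without 0 h repeat 1, 1052 without 6 h repeat 1, 1203 without 6 h repeat 2), and 767 genes (210 higher, 557 lower) were called without each array in turn. In this sense a call is said below to hold. Each gene was read on 1 probe set, its brightest, and the counts by list below depend on that choice. A smaller cell share and less RNA per cell cannot be told apart in such bulk samples.

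Several transcription factors of the rapid response were still high at 6 h without Npas4. Of 27 rapid-response genes tested, 11 were called higher and 1 lower, with a median change of 0.92, against 4.84% and 12.3% of all genes tested. Nr4a1, an orphan nuclear receptor, read 4.71 and 4.95 silenced, 12.05 and 11.92 after 1 h, and 10.10 and 9.55 after 6 h. Both 6 h arrays lay far above both 0 h arrays and below both 1 h arrays, with a change of 4.99 ± 0.23 (adjusted p = 9.6e-09). Fos, a subunit of the AP-1 factor, read 7.52 and 8.24 silenced and 12.73 and 12.40 after 6 h, 4.68 ± 0.36 higher. Its 1 h arrays (13.41 and 13.48) were above the 6 h arrays, but the difference of -0.88 between 6 and 1 h did not pass the test (adjusted p = 0.14).

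Members of one family took different courses between 1 and 6 h. Nr4a3 was 3.15 above the silenced level at 1 h and 3.21 ± 0.13 above it at 6 h, and Nr4a2 was 3.20 and 3.45 ± 0.47 above it. Fosb, another AP-1 subunit, fell by 3.36 between 1 and 6 h and was still 3.44 ± 0.43 above the silenced level, at 9.05 and 8.01. Its silenced mean was below the median array value, so the size of that rise is approximate. Egr2, a zinc finger factor, fell by 3.96 in that interval, from 12.37 and 12.22 to 8.30 and 8.37. Its remaining rise of 1.08 was called, but not without 0 h repeat 1 (0.81) nor without either 6 h array. The calls of Nr4a1, Nr4a2, Nr4a3, Fos, Fosb, Fosl2, Maff and Npas4 itself held, while those of Egr2, Egr3, Junb and the lower Jun did not. Egr1 read 10.63 and 11.23 silenced, 13.68 and 13.61 after 1 h, and 11.14 and 10.92 after 6 h, so its 6 h arrays lay between its 0 h arrays (change 0.10, adjusted p = 0.85). Arc, which encodes a postsynaptic protein that regulates AMPA receptors, went from 10.20 and 9.49 at 1 h to 6.50 and 6.63 at 6 h, against 6.04 and 6.21 at 0 h (change 0.44, adjusted p = 0.47). Nr4a and Fos transcripts were thus elevated at a time when Egr1 and Arc were not called.

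**Figure D1:**
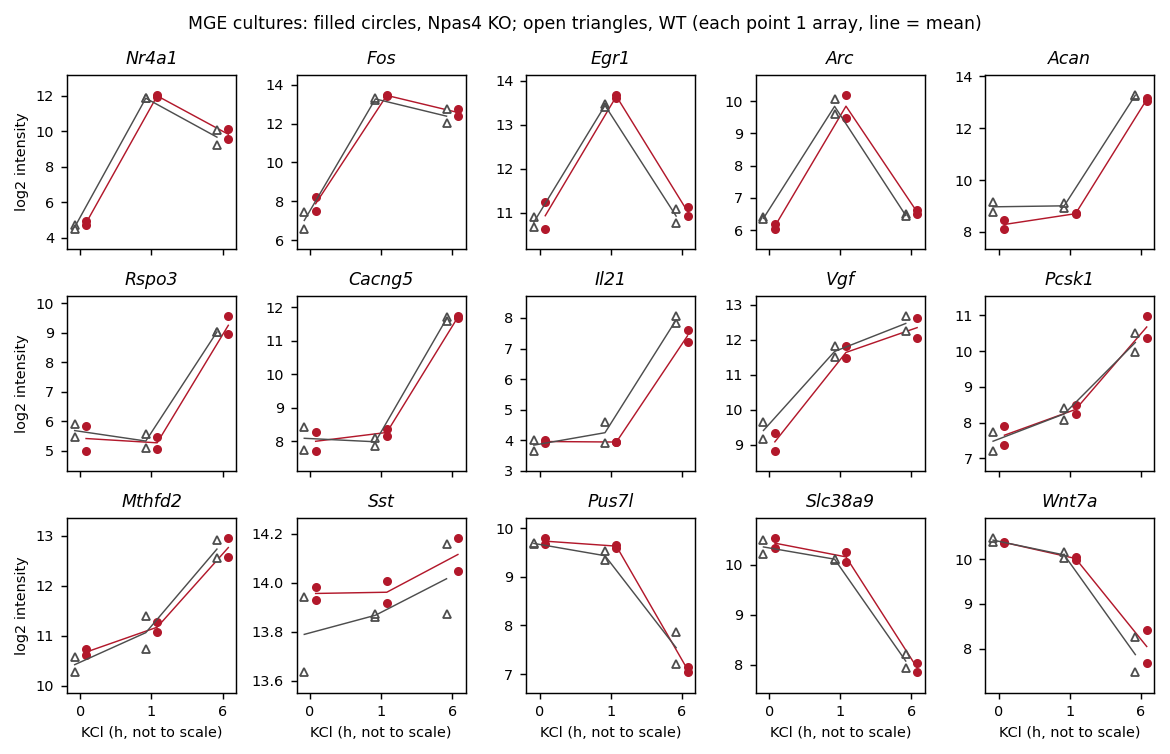
log2 intensity of 15 genes in every MGE array at 0, 1 and 6 h of KCl, with Npas4 KO as filled red circles and WT as open grey triangles, and lines joining the means of the 2 arrays (each panel has its own vertical scale). Nr4a1, Fos, Egr1 and Arc peaked at 1 h in the KO cultures. Acan, Rspo3, Cacng5 and Il21 were near their 0 h level at 1 h and high at 6 h, Sst spanned a narrow range, and Pus7l, Slc38a9 and Wnt7a were low at 6 h.

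Few genes were called at 1 h in MGE KO, 40 higher (0.323%) and 15 lower (0.121%), 55 in all (0.444%), in a comparison that uses the same 0 h arrays. Of the 245 genes over 2-fold higher at 6 h, 22 were called higher at 1 h, with a median change of 0.23 at 1 h and 1.47 at 6 h. Between 1 and 6 h, 404 genes were called higher (3.26%) and 1119 lower (9.04%), together 12.3% of genes tested, and 174 of the 245 were among the higher and 6 among the lower. With the probe set of largest variance for each gene, 101 genes were called at 1 h. Leaving out any one array lowered these counts, to between 20 and 27 at 1 h and between 614 and 818 from 1 to 6 h.

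Acan was the largest of these late rises. The gene, which encodes the proteoglycan aggrecan of perineuronal nets, read 8.46 and 8.11 in the silenced arrays, 8.69 and 8.71 after 1 h, and 13.16 and 13.06 after 6 h. The 6 h arrays stood 4.82 ± 0.59 above the 0 h arrays, a 28.3-fold change (adjusted p = 8.1e-05), and 4.41 above the 1 h arrays. Rspo3, a secreted protein that strengthens Wnt signalling, read 5.83 and 5.002 silenced and 9.55 and 8.94 after 6 h (3.83 ± 0.34). Its 0 h values were below the median array value, so its fold is approximate.

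Cacng5, an auxiliary subunit of AMPA receptors, read 8.28 and 7.72 silenced and 11.72 and 11.68 after 6 h. The change was 3.70 ± 0.27 (adjusted p = 1.3e-06), and 8.35 and 8.17 at 1 h were still at the silenced level. Il21, a cytokine best known from T cells, was at 3.99 and 3.92 at 0 h, 3.94 in both arrays at 1 h, and 7.61 and 7.22 at 6 h (3.46 ± 0.19). This is a rise from below to slightly above the array median, so its size is a rough one. Calcrl, the receptor subunit for the peptides CGRP and adrenomedullin, was 3.91 ± 0.77 higher at 6 h. Mir670hg, the host transcript of a microRNA, was 3.67 ± 0.29 higher, and Tslp, a cytokine of epithelial cells, 3.07 ± 0.32 higher. Each of these 7 calls at 6 h against 0 h held. Between 6 and 1 h those of Acan, Rspo3, Cacng5, Il21 and Mir670hg held, whereas that of Calcrl (3.59) was lost without 1 h repeat 2 or 6 h repeat 1 and that of Tslp (1.08) without each of the 4 arrays.

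Peptide and dense-core granule genes gave 4 calls higher and 0 lower of 24 tested (median 0.18), and 3 of the calls held. The shares over all genes were 4.84% called higher and 12.3% lower. Vgf, the precursor of several secreted peptides, read 9.34 and 8.83 silenced, 11.80 and 11.46 after 1 h, and 12.62 and 12.06 after 6 h. The change from 0 h was 3.26 ± 0.43 (adjusted p = 0.00016). Both 6 h arrays were above both 1 h arrays, but that difference of 0.71 did not pass the test (adjusted p = 0.37). Pcsk1, a protease that cuts peptide precursors in the granules, was at 7.91 and 7.39, then 8.49 and 8.25, then 10.97 and 10.38, a change of 3.02 ± 0.46 at 6 h. Cartpt, the precursor of the CART peptide, went from 9.58 and 8.76 at 0 h to 11.85 and 11.59 at 6 h (2.55 ± 0.31). The calls of these 3 genes held, and that of another protease gene, Pcsk5 (1.62), was lost without 0 h repeat 1, 0 h repeat 2 or 6 h repeat 1. Sstr2, a receptor for somatostatin, rose in cultures with abundant Sst. It read 7.98 and 8.06 silenced, 10.25 and 10.16 after 1 h, and 11.33 and 11.03 after 6 h (3.16 ± 0.19, adjusted p = 2e-07).

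CREB, a transcription factor activated by calcium and cyclic AMP signals, binds the palindrome TGACGTCA and, more weakly, its shorter form TGACG. The promoters of Pcsk1, Cartpt and Sstr2 are shown because they carry the palindrome, and those of Nr4a1 and Fos because the shorter form lies within the same distance of the start. Each is the 120 bases before the RefSeq transcription start (GRCm38.p6), 5′ to 3′ on the strand of the gene, with capitals marking the palindrome in the first 3 and the shorter form, on either strand, in Nr4a1 and Fos (CGTCA is TGACG read on the other strand). A shorter form elsewhere in the first 3, as in Pcsk1, is left in lower case. They are Pcsk1 at chr13:75089737-75089856 (plus strand), Cartpt at chr13:99900684-99900803 (minus strand), Sstr2 at chr11:113619207-113619326 (plus), Nr4a1 at chr15:101266726-101266845 (plus) and Fos at chr12:85473770-85473889 (plus).
Pcsk1: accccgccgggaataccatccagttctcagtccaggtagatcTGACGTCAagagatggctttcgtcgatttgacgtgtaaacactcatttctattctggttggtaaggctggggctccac
Cartpt: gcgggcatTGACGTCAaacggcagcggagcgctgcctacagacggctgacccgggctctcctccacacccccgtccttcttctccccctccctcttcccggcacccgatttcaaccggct
Sstr2: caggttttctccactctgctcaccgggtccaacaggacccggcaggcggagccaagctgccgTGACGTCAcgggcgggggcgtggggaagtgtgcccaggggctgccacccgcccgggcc
Nr4a1: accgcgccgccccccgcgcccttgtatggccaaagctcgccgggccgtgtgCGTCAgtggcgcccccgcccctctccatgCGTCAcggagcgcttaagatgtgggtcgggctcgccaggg
Fos: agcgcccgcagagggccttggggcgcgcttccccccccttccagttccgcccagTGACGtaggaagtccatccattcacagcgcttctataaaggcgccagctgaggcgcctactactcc

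The motif was not particular to these genes. In the 250 bases before the start, searched on both strands, TGACGTCA was found in 6 of the 183 promoters matched among the 245 genes over 2-fold higher (3.28%), in 14 of 458 matched among those over 2-fold lower (3.06%) and in 3.11% of the 10016 matched genes tested. TGACG, which the palindrome contains, was found in 39.9% of the higher, 30.3% of the lower and 31.0% of all tested. Among the 15 largest rises, 11 had a promoter in the table and 1 of these, Sstr2, held the palindrome. A match is a description of the letters and does not show that a factor binds there.

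Some genes that restrain activity-dependent signalling rose as well. Over all genes tested, 4.84% were called higher and 12.3% lower. Of 24 negative-feedback genes tested, 5 were called higher and 2 lower (median 0.60), with 3 higher without 0 h repeat 1 or 6 h repeat 1. Crem, whose short form represses CREB targets, read 8.57 and 8.75 silenced, 10.34 and 10.70 after 1 h, and 12.002 and 11.78 after 6 h, rising in each interval to a change of 3.23 ± 0.28. The step from 1 to 6 h (1.37) was not called without 1 h repeat 1 or 6 h repeat 1, and that from 0 to 1 h (1.86) was not called without 0 h repeat 1, 0 h repeat 2 or 1 h repeat 2. Dusp4, a phosphatase that inactivates MAP kinases, was 2.42 ± 0.42 higher and Per1, a repressor of the circadian clock, 1.31 ± 0.23 higher. Those 3 calls held. The receptor tyrosine kinase inhibitors Spry4 (1.32) and Spry2 (1.25) were called, but not without 0 h repeat 1 (1.07 and 0.82) or 6 h repeat 1, nor Spry2 without 6 h repeat 2. The calls of the lower genes Rcan1, a calcineurin inhibitor, and Dusp2 did not hold.

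Secreted growth factors gave 4 calls of 21 (median 0.22), all higher, and of these only Il21 held. Leaving out 0 h repeat 1, 0 h repeat 2 or 6 h repeat 1 left 2, 2 and 1 of them. For comparison, 4.84% of all genes tested were called higher and 12.3% lower. Igf1, the insulin-like growth factor, read 9.63 and 9.65 silenced and 12.64 and 12.30 after 6 h. The groups were well apart and the change was 2.83 ± 0.65 (adjusted p = 0.0075), but it was not called without 0 h repeat 1 (2.82, adjusted p = 0.051) or 6 h repeat 1 (2.66, adjusted p = 0.064). Inhba, a subunit of activin, was called at 1.29, but not without 0 h repeat 1, 0 h repeat 2 or 6 h repeat 1 (0.90). Bdnf, the best-known late gene of excitatory neurons, read 5.67 and 5.76 silenced and 6.90 and 6.87 after 6 h, a change of 1.17 ± 0.45 that was not called (adjusted p = 0.097). Among all 28 late effectors 7 were called higher and 1 lower (median 0.47), with 4 higher without 6 h repeat 1. Sv2c, a protein of synaptic vesicles, read 4.67 and 4.78 silenced and 7.81 and 7.15 after 6 h (2.76 ± 0.26), and Rerg, a small GTPase of the Ras family, at 6.67 and 6.81, then 8.71 and 8.74 (1.98 ± 0.41). The calls of both held, but their 0 h values were below the median array value, so both sizes are approximate.

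Of the lists, the amino acid stress response had the largest share called higher. Its genes are the transcription factor Atf4 and its known targets, which code for amino acid transporters, for enzymes that make serine, asparagine and one-carbon units, and for tRNA ligases. Of 31 tested, 19 were called higher and 0 lower, with a median of 0.71, against 4.84% of all genes called higher and the overall median of -0.07. The list was drawn up with earlier results of these data known, so this share is a description and not an independent test. At 1 h, in a comparison with the same 0 h arrays, 2 of the 31 were called higher, and 15 were called higher at 6 h than at 1 h. Mthfd2, a mitochondrial folate enzyme, read 10.61 and 10.73 silenced, 11.07 and 11.27 after 1 h, and 12.95 and 12.57 after 6 h (2.09 ± 0.31). Psph, which completes serine synthesis, read 8.56 and 9.07 silenced and 11.58 and 11.04 after 6 h (2.49 ± 0.37). In both genes the 6 h arrays were apart from all earlier ones.

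Size varied with the repeat in this list. Trib3, a pseudokinase that restrains Atf4, read 7.06 and 6.65 silenced and 10.10 and 8.66 after 6 h, so the 6 h arrays lay far from each other although both were above 0 h (2.53 ± 0.49). Slc7a11, the cystine transporter, was likewise at 7.46 and 5.99 at 6 h, above 4.71 and 4.32 at 0 h (2.21 ± 0.42). Its 0 h values were below the median array value, so that size is approximate. Chac1, an enzyme that degrades glutathione, was 2.28 ± 0.51 higher and lost its call without 6 h repeat 1 (1.88, adjusted p = 0.081). In all 19 called genes 6 h repeat 1 was above repeat 2. Leaving out one array left 10 (without 6 h repeat 1) to 15 (without 6 h repeat 2) of the 31 called higher, with 12 without 0 h repeat 1 and 13 without 0 h repeat 2. Calls held for 9, namely Asns, Atf4, Mthfd2, Psph, Sesn2, Slc7a3, Slc7a5, Slc7a11 and Trib3. The chaperones and other heat shock genes did not follow as a list, with 2 called higher and 1 lower of 24 (median 0.00). Herpud1, which acts in the disposal of misfolded proteins of the endoplasmic reticulum, rose by 1.37 ± 0.24 and its call held.

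**Figure D2:**
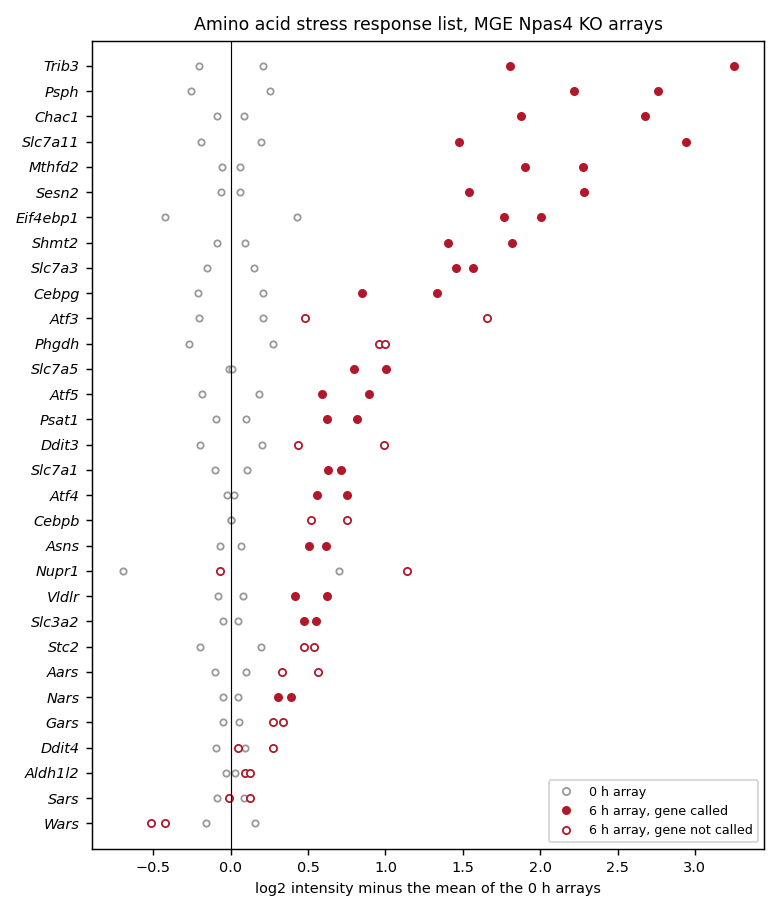
Each row is 1 of the 31 amino acid stress genes, with the log2 intensity of the 4 MGE KO arrays relative to the mean of the 0 h arrays (open grey circles, 0 h; red circles, 6 h, filled where the gene was called). In the 19 called genes both 6 h arrays lie to the right of both 0 h arrays, and Trib3 and Slc7a11 have the widest spread between the 6 h arrays.

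Of 19 enzymes of cholesterol synthesis 7 were called higher and 0 lower (median 0.23), against 4.84% and 12.3% of all genes tested. Sc5d, which acts near the end of the pathway, read 10.64 and 10.52 silenced, 11.40 and 11.41 after 1 h, and 12.20 and 12.18 after 6 h, with each time apart from the next and a change of 1.61 ± 0.13 at 6 h. Its other probe sets changed by only 0.27 and 0.47 and were not called. Cyp51, a demethylase of lanosterol, was 0.86 ± 0.11 higher (0.98 and 1.14 on its other probe sets, both called) and Sqle, squalene epoxidase, 0.68 ± 0.13 higher. Those 3 calls held, and the calls of Lss (0.89) and Idi1 (0.74) did not. Without any one array 3 to 4 of the 19 were called, and 3 without 6 h repeat 2. Of 19 clock genes 4 were called higher and 0 lower (median 0.38). Besides Per1, these were Nfil3, a repressor of the clock output (1.05 ± 0.15), Per2 (1.23 ± 0.31) and Clock (0.94 ± 0.28). The Nfil3 call held, that of Per2 was lost without 0 h repeat 1, 0 h repeat 2 or 6 h repeat 1, and that of Clock without any one array. In the family of bHLH-PAS factors, to which Npas4 belongs, 2 of 14 were called higher (median 0.24), namely Npas4 itself and Clock.

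Potassium channel genes gave 7 calls higher and 1 lower of 34 (median 0.12), and 4 of these calls held. Among all genes tested, 4.84% were called higher and 12.3% lower. Kcnj4, an inward rectifier, read 7.74 and 7.67 silenced and 9.50 and 9.59 after 6 h (1.84 ± 0.16). Kcnn2, a calcium-activated channel, was at 9.07 in both 0 h arrays and at 11.26 and 11.10 at 6 h (2.11 ± 0.40). Kcnf1, a silent subunit that modifies other channels, was 2.09 ± 0.33 higher, and Kcna2, a delayed rectifier of axons, 1.14 ± 0.23 higher. Their 6 h arrays were all above their 0 h arrays. Kcns2 (1.89) was called and lost its call without any one array. The count of higher calls was 5 without 0 h repeat 2 and 4 without any other array.

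Other receptor and release genes are given singly. Over all genes tested, 4.84% were called higher and 12.3% lower, and in each of these lists the share called lower was smaller. These counts are for the probe sets used. Some genes not called on these were called higher on another, such as Camk2d (2.61), Grik2 (0.94), Gabrg3 (1.32) and Vamp2 (1.09). A further probe set of Camk2d (-0.66) and of Gabrg3 (-0.09) was not called. Of 33 genes for calcium channels and calcium handling, 1 was called higher and 2 lower (median -0.03). Cacna1d, an L-type calcium channel subunit, read 11.26 and 11.22 silenced, 11.40 and 11.33 after 1 h, and 9.68 and 9.75 after 6 h. It fell by 1.52 ± 0.19 on the log2 scale and its call held, whereas those of Cacnb2 (1.38) and Slc8a3 (-0.55) did not. Among 24 glutamate receptor genes Cacng5 was the only one called higher on the probe set used. Grm4, a presynaptic metabotropic receptor, was the only one called lower, from 9.77 and 9.36 to 8.15 and 7.51 (-1.73 ± 0.29), and both calls held. Of 12 GABA receptor genes Gabra2 (1.22 ± 0.27) and Gabra5 (0.81 ± 0.26) were called higher, and neither call held, since Gabra2 was 0.88 without 0 h repeat 1 and Gabra5 0.59 without 6 h repeat 1. In the synaptic vesicle list, 3 of 30 were called higher and 2 lower (median 0.01). Sv2c and the lower Syt12 (-0.77 ± 0.17), a synaptotagmin, held. Syt4 (0.84), Rims3 (0.64) and Stx1a (-0.45) were called and did not hold.

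**Figure D3:**
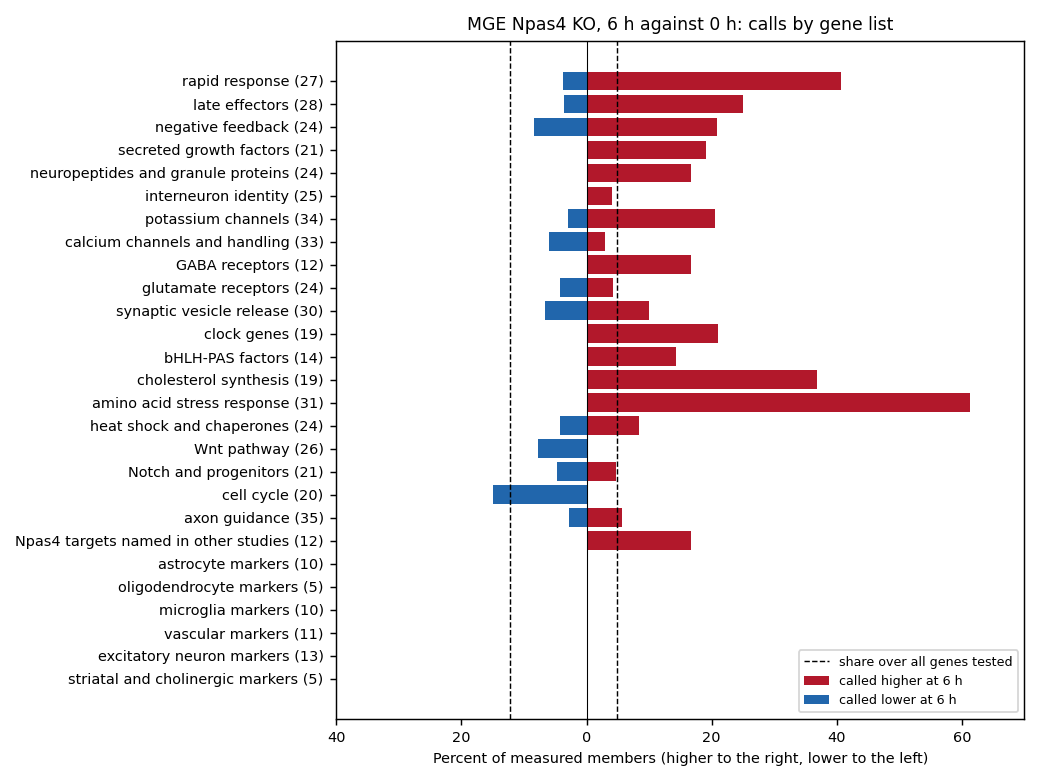
Percent of the measured members of 27 gene lists called higher (red, to the right) or lower (blue, to the left) at 6 h in MGE KO cultures, with the number of members tested in brackets and the shares over all genes tested as dashed lines (4.84% higher, 12.3% lower). The amino acid stress list has the longest bar, 19 of 31, and the astrocyte, oligodendrocyte, microglia, vascular, excitatory, and striatal and cholinergic lists have none.

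Pus7l, Dus4l, Mettl8 and Slc38a9 were among the 15 largest falls. Pus7l, a gene of the pseudouridine synthase family that modifies RNA, read 9.67 and 9.79 silenced, 9.66 and 9.60 after 1 h, and 7.04 and 7.16 after 6 h. It fell by 2.64 ± 0.15 on the log2 scale (adjusted p = 1.8e-07), with both 6 h arrays far below the rest. Another probe set of Pus7l had a smaller change (-0.78) that was also called. Dus4l, a gene of the dihydrouridine synthase family, which modifies tRNA, fell by 2.74 ± 0.30 and Mettl8, a methyltransferase of RNA, by 2.18 ± 0.21. Slc38a9, an arginine sensor of the lysosome that signals to mTORC1, read 10.33 and 10.54 silenced and 8.03 and 7.85 after 6 h (-2.49 ± 0.34). That fall depends on the probe set. Another probe set of Slc38a9 changed by -1.55 and was called, but the rest lay between -0.20 and 0.09 and were not called.

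The zinc finger genes Zfp493 (-2.52 ± 0.21), Zfp213 (-2.21 ± 0.31) and Zmat1 (-2.58 ± 0.38) were also among these 15, as were Tbl2 (-2.61 ± 0.21), a protein of the endoplasmic reticulum, Klhdc1 (-2.32 ± 0.21), which selects proteins for degradation, and Slc16a6 (-2.29 ± 0.31), a monocarboxylate transporter. Txnip, which restrains thioredoxin and glucose uptake, had its lowest values at 1 h. It read 10.08 and 10.58 silenced, 7.24 and 7.79 after 1 h, and 7.54 and 8.30 after 6 h. Its change of -2.41 ± 0.64 at 6 h was the only call among the 15 that did not hold, being lost without 0 h repeat 1, 0 h repeat 2 or 6 h repeat 1. Other probe sets of Zfp213 (-0.26) and Txnip (-0.47) were not called at 6 h against 0 h, whereas another of Tbl2 (-2.63) was. Of the 569 genes over 2-fold lower, 486 were also called lower at 6 h than at 1 h and 5 were called lower at 1 h (median -0.14 at 1 h and -1.26 at 6 h). The 6 h mean of 147 of them was below the median array value, as was the 0 h mean of 66 of the 245 genes over 2-fold higher.

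Lists of developmental and cell cycle genes are given beside the shares over all genes, 4.84% called higher and 12.3% lower, and most of their counts are near or under these. In the Wnt list 0 of 26 genes were called higher and 2 lower (median -0.13), on the probe sets used. Fzd3, at 0.30 and not called, was called higher on other probe sets (0.63 to 1.23), though not on 1 at 0.22. Fzd8, at -0.18 and not called, was called lower on another (-1.02). Wnt7a, a ligand that promotes synapse formation, read 10.35 and 10.39 silenced, 10.05 and 9.97 after 1 h, and 7.69 and 8.42 after 6 h, a fall of 2.31 ± 0.24. Apcdd1, a Wnt inhibitor at the cell surface, fell by 0.95 ± 0.15, and both calls held. Of 21 Notch and progenitor genes Jag1, a Notch ligand, was called higher (1.87 ± 0.32) and held, and Dll3 (-1.06) was called lower and did not. Of 20 cell cycle genes 3 were called lower and 0 higher (median -0.16). Mcm6, part of the helicase that starts DNA replication, went from 10.78 and 10.43 to 9.25 and 9.29 (-1.33 ± 0.22) and Ccne1, cyclin E1, was at -0.98 ± 0.13, and both held, whereas Mcm5 (-1.11) did not. Of 35 axon guidance genes, 2 were called higher and 1 lower (median 0.11), and only Sema6a, a transmembrane semaphorin, held (1.35 ± 0.12).

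Of 25 interneuron identity genes 1 was called, Dlx6 (0.69 ± 0.16), which was not called without 6 h repeat 1 (0.58), and the median was -0.02. Sst was at 14.18 and 14.05 at 6 h, 0.16 ± 0.29 above its 0 h level, and Gad1 at 13.06 and 13.08 (0.36 ± 0.30), neither of which passed the test. No gene was called among the tested markers of astrocytes (10), oligodendrocytes (5), microglia (10), vascular cells (11), excitatory neurons (13) and striatal or cholinergic neurons (5). In limma 0 of these 54 genes were called, against 17.1% of all genes tested, and 4 were at an unadjusted p under 0.05. Some markers were imprecise. Other probe sets of Gfap and Col1a1 had SEs of 0.70 and 1.43, against a median SE of 0.21 over all genes. The means of 9 excitatory, 4 vascular, 3 microglial and 1 striatal or cholinergic marker were below the median array value at both times. For such genes a fall could hardly be called, so the 17.1% is not a like background for them. The lack of calls therefore does not show that cell shares were unchanged. Of 4 sex-linked genes 0 were called by limma, and 0 had an unadjusted p under 0.05. Averaged over each list, the 6 h arrays were at 9.86 and 10.07 for astrocyte and at 7.96 and 7.50 for microglial markers, against 10.04 and 10.15, and 7.96 and 7.16, at 0 h. The values of a gene depend on the probe set that stands for it. Homer1, a postsynaptic scaffold, was 0.25 on the probe set used and not called, while another probe set read 3.03 ± 0.28 and was called. Homer1 was named after its values were seen. In 42 of 316 genes with another probe set, that one was called where the used one was not, and in 0 the calls were opposite. The reverse, a used probe set called and another not, also occurred and was not counted. Examples are Sc5d (0.27 and 0.47), Per2 (-0.10 and 0.17), Egr3 (-0.03) and Nr4a3 (0.72). In other genes, such as Igf1, Rspo3 and Sema6a, the other probe sets were called as well.

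The same contrast in MGE cultures with Npas4 asks which of these changes proceed in both genotypes. Its arrays are other ones, but several were closer to the KO array of the same repeat number than replicates of a group were to each other. Repeat 1 of WT and KO correlated at 0.995 at 6 h (51 genes over 2-fold apart) and repeat 2 at 0.989 (92 genes), against 0.988 between the KO replicates (254 genes). Whether same-numbered cultures shared a source was not tested. In WT, 1180 genes were called higher (9.53%) and 1948 lower (15.7%), 25.3% of genes tested. Of the 245 genes over 2-fold higher in KO, 236 (96.3%) were called higher in WT and all 245 had the same sign. Of the 569 over 2-fold lower, 517 (90.9%) were called lower in WT and 568 had the same sign. The median change of the 245 was 1.47 in KO and 1.59 in WT, and that of the 569 was -1.26 and -1.27. Without the WT 0 h repeat 2 array, which stood apart, 186 of the 245 (75.9%) and 466 of the 569 (81.9%) were called, with WT medians of 1.44 and -1.19. The whole WT count of 3128 was 1380 in that case, 5248 without WT 0 h repeat 1 and 1103 without WT 6 h repeat 1. Acan rose by 4.31 in WT, Nr4a1 by 5.06, Fos by 5.35, Cacng5 by 3.56, Vgf by 3.05 and Pcsk1 by 2.76, each called.

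Seen from the WT side, fewer of the rises were called in the other genotype. Of the 517 genes over 2-fold higher in WT (4.18%), 264 (51.1%) were called higher in KO and 512 had the same sign, with medians of 1.37 in WT and 0.98 in KO. Of the 648 over 2-fold lower in WT (5.24%), 567 (87.5%) were called lower in KO. Each set was chosen in one genotype, so its medians are no test of a difference. Such shares turned on single arrays. Over all 3128 WT calls 56% were called the same way in KO, against 87.8% without WT 0 h repeat 2, 90.3% without WT 6 h repeat 1 and 30.7% without WT 0 h repeat 1. The share was 28.5% without KO 0 h repeat 1, 31.5% without KO 6 h repeat 1 and 34.5% without KO 6 h repeat 2.

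The test of that difference, KO change minus WT change, called 0 of 12378 genes in limma (0%), with 190 at an unadjusted p under 0.05. Half-widths of its 95% confidence intervals had a median of 0.63 over all genes and 0.86 over the 245, before any adjustment over genes. The targeted gene itself, with 1.43 in KO and 3.19 in WT, was not called (-1.76 ± 0.35, adjusted p = 0.58). Without WT 0 h repeat 1 the same test called 693 genes, 659 of them lower in KO, so its count turned on the silenced WT arrays. Without WT 0 h repeat 2, without KO 6 h repeat 1 (Mup10, 2.51) and with no filter on low genes (Adamts19 and Hpse) it called 1, 1 and 2.

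The largest values in that test are given without a call. Lmo2, a transcriptional adaptor, read 7.69 and 7.48 silenced and 7.33 and 6.26 after 6 h in KO, against 7.81 and 6.60 and then 9.83 and 8.87 in WT. The 6 h arrays of the genotypes were apart and the difference between changes was -2.93 ± 0.67, with an unadjusted p of 0.00062 and an adjusted p of 1. Rerg rose in both, by 1.98 in KO and 3.80 in WT (-1.81 ± 0.59), but WT 0 h repeat 2 was at 5.02 where the other silenced arrays were at 6.67 to 6.81. Mup10, a gene of the major urinary protein family, whose near-identical members may share signal on its probe set, was at -1.65 in WT and 0.44 in KO (2.09 ± 0.36, adjusted p = 0.31). Among 12 genes described elsewhere as targets of Npas4, 9 were called higher in WT and 2 in KO, Igf1 and Rgs2, neither of which held. These counts depend on the probe set. In KO, other probe sets of Nptx2 (1.20), Nrp1 (0.93 and 1.76) and Rgs2 (1.18 and 1.06) were called higher. A further one of Nrp1 (0.78) and of Rgs2 (0.16) was not, nor were those of Bdnf, Kcna1, Mdm2 and Osgin2. The WT change was not tested on these other probe sets. Calls higher were also more common in WT over all genes tested, 9.53% against 4.84% in KO. The medians of the 12 were 1.22 in WT and 0.63 in KO. Nptx2, which clusters AMPA receptors, had a change of 1.22 in KO and 2.55 in WT, Cort, the peptide cortistatin, 1.60 and 2.03, and Bdnf 1.17 and 1.77. In the test of the difference 0 of the 12 were called by limma, and 2 had an unadjusted p under 0.05. Osgin2, at 10.34 and 10.23 silenced and 10.11 and 10.05 after 6 h in KO, against 10.41 and 10.32 and then 11.50 and 11.09 in WT, had the smaller of these (difference -1.14 ± 0.20, unadjusted p = 5.1e-05, adjusted p = 0.31). Its 6 h arrays were apart between the genotypes. Gpr3, a receptor that activates cyclic AMP signalling, had changes of 1.05 and 2.29 (-1.24 ± 0.57, unadjusted p = 0.047, adjusted p = 1). These 2 genes were chosen after their values were seen.

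**Figure D4:**
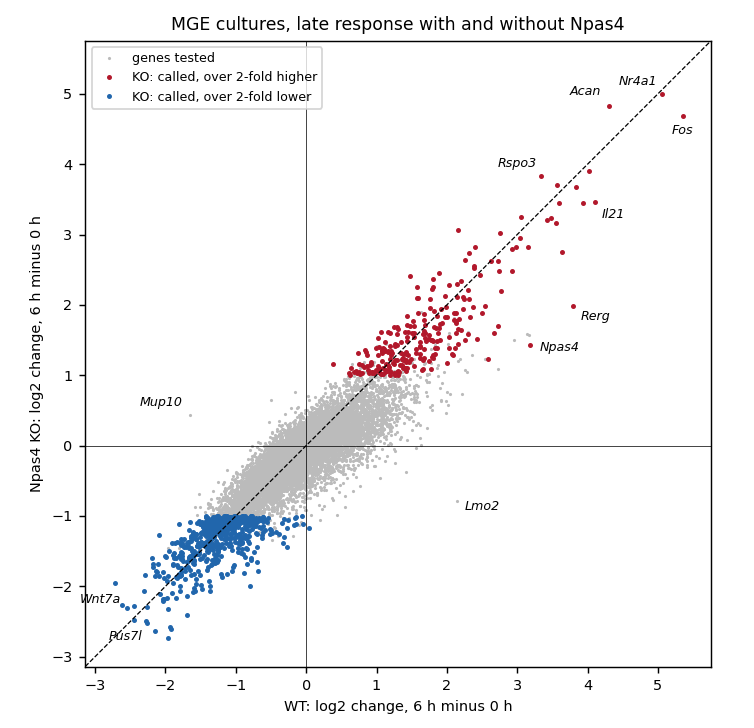
Log2 change from 0 to 6 h in MGE WT (horizontal) and MGE KO cultures (vertical) for the 12378 genes tested, with the 245 genes over 2-fold higher in KO in red, the 569 over 2-fold lower in blue, and the line of equal change dashed. The coloured genes lie along the line from Pus7l and Wnt7a to Nr4a1, while Npas4, Rerg and Lmo2 are below it and Mup10 above it.

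Without Npas4, the late response differed between the culture types. In CTX KO cultures 1395 genes were called higher (11.3%) and 3087 lower (24.9%) at 6 h, 36.2% in all. The difference between the changes, MGE minus CTX, was called for 908 genes (7.34%), 552 above 0 (4.46%) and 356 below (2.88%). Leaving out CTX KO 6 h repeat 1 gave 1125 calls, and each of the other 7 arrays lowered the count, to between 430 and 587. Acan (4.82 and 4.52) and Nr4a1 (4.99 and 5.69) rose in both cultures, with differences that were not called.

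Il21, Cacng5 and Rspo3 rose more in MGE than in CTX. In CTX KO, Il21 read 4.04 and 4.10 silenced and 4.23 and 4.14 after 6 h, against its rise to 7.61 and 7.22 in MGE, a difference of 3.35 ± 0.27. The CTX change of Cacng5 was 0.52, a difference of 3.18 ± 0.38. Rspo3 was already at 10.15 and 9.85 in silenced CTX KO cultures and rose by 1.00 there, so that after 6 h it was still higher in CTX (11.27 and 10.73) than in MGE (9.55 and 8.94). The difference between its changes was 2.83 ± 0.48. Sstr2 (2.09) and Nr4a3 (2.11) also rose more in MGE, and all 5 calls held without each of the 8 arrays.

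Bdnf, Egr1 and Arc rose in CTX KO and were not called in MGE KO. In CTX KO, Bdnf read 7.42 and 6.34 silenced and 12.55 and 12.07 after 6 h, a change of 5.43 against 1.17 in MGE (difference -4.26 ± 0.64). Egr1 and Arc were 2.61 and 2.74 above their silenced level in CTX KO at 6 h, and the differences of -2.51 and -2.29 were called. Fosb rose by 7.09 in CTX against 3.44 in MGE (-3.64), and Pcsk1 by 6.11 against 3.02 (-3.09). The calls of Bdnf, Egr1, Arc and Fosb held without each of the 8 arrays, and that of Pcsk1 was lost without MGE KO 6 h repeat 2 (-2.79, adjusted p = 0.052). Of the 31 amino acid stress genes, 19 were called higher in MGE KO (median 0.71) and 18 in CTX KO (median 0.64), and 1 was called in the test of the difference.

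**Figure D5:**
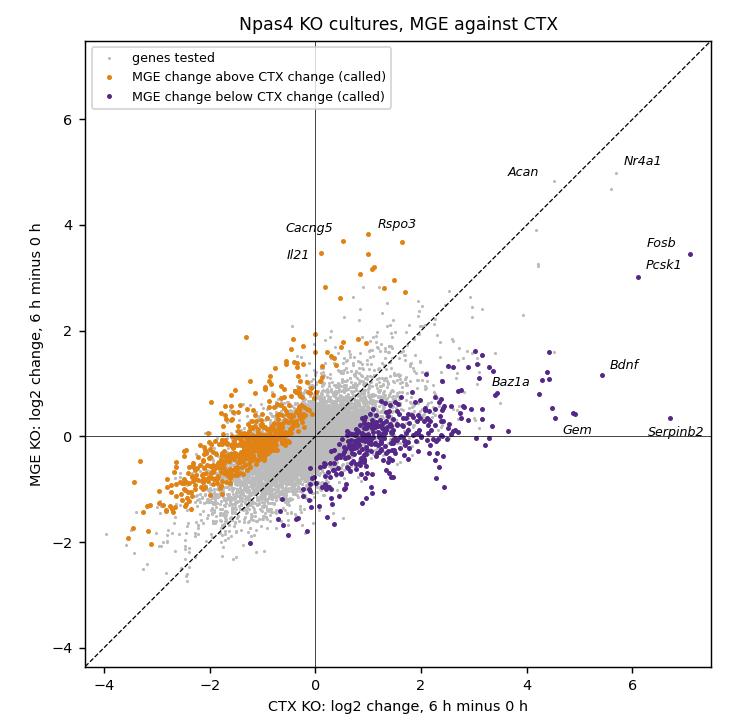
Log2 change from 0 to 6 h in CTX KO (horizontal) and MGE KO cultures (vertical) for the 12378 genes tested, with the 908 genes whose changes differed coloured orange (MGE above CTX, 552) or purple (MGE below CTX, 356). Il21, Cacng5 and Rspo3 are high on the MGE axis alone, Bdnf, Serpinb2 and Gem are far out on the CTX axis, and Acan and Nr4a1 are near the dashed line of equal change.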

How the data were processed

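Total RNA (100 ng) from each culture was amplified and hybridized, per the labels' protocols. The authors deposited 1 linear intensity per probe set, and RMA is the method named in the submitters' processing notes (no version); whether all arrays were normalized together is not given in the sources used here. RMA gives arrays like distributions, which would hide a change common to most genes. Deposited intensities were turned into log2 values here. Of 45101 probe sets, 34958 named 1 gene, 932 several and 9211 none; Entrez identifiers matched 34754 to RefSeq and 0 symbols changed. Each of 18194 genes was represented by its brightest probe set, and the 12378 genes that exceeded the array median on 2 or more arrays were tested. Among 3641 probe sets without a single gene, 286 were higher and 299 lower. limma 3.58.1 in R 4.3.3 fitted 12 group means to 24 arrays (12 residual and 2.408 prior degrees of freedom), with two-sided tests, Benjamini-Hochberg adjustment over all genes of a comparison, and calls at an adjusted p under 0.05. There were 7 comparisons. Steps were tested on simulated data. Members and the 28 gene lists were chosen with earlier results of these data known. Eligible for naming with values were Npas4, up to 5 members of a list (called first, by size), the 15 largest rises and 15 largest falls with arrays that do not overlap, and up to 10 a direction in the 6 against 1 h, genotype and culture tests. Clone-named genes were counted only (160 of 588 called). Genes named outside this rule were chosen after their values were seen. These were Homer1, Osgin2, Gpr3, genes named for another probe set, and the marker genes given as a check of the label. In the culture test they were Sstr2, Nr4a3, Egr1, Arc and Pcsk1. Alternatives were another probe set rule, other filters, scaling, spread estimates, a replicate block and leaving out each array.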

Additional observations from a re-analysis of the deposited data

Results flagged for a closer look

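The change from 0 to 6 h without Npas4 differed between MGE and CTX cultures for 908 genes by a test of the difference itself (limma, MGE KO change minus CTX KO change). Of the 5 largest positive differences, Il21 (3.35), Cacng5 (3.18) and Rspo3 (2.83) are described above. Avpr1a, a vasopressin receptor, differed by 3.20 ± 0.73, going from 8.19 and 7.37 to 9.89 and 9.44 in MGE KO and from 8.82 and 9.60 to 7.28 and 8.51 in CTX KO. Its call was lost without CTX KO 0 h repeat 2, MGE KO 0 h repeat 2 or MGE KO 6 h repeat 1. Sv2b, a synaptic vesicle protein, differed by 2.61 ± 0.48. It was at 6.46 and 6.14, then 7.36 and 6.53 in MGE KO, a change that was not called, and at 11.53 and 11.66, then 9.40 and 9.86 in CTX KO.

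On the negative side, Serpinb2, a protease inhibitor, differed by -6.36 ± 0.41, a size that is approximate because all but its CTX KO arrays at 6 h were below the median array value of 6.88. In CTX KO it went from 3.61 and 3.56 to 10.60 and 9.98, while in MGE KO it was at 4.99 and 4.95, then 5.68 and 4.95. Kif18a, a kinesin of the mitotic spindle, differed by -4.48 ± 0.78, Bdnf by -4.26 ± 0.64 and Gem, a small GTPase that inhibits calcium channels, by -4.19 ± 0.52. Kif18a (5.23 to 6.26) and Gem (3.65 to 4.11) were also below the median in all MGE KO arrays at 0 and 6 h. Prox1, a homeodomain factor, differed by -4.43 ± 0.98, and its call was lost without CTX KO 0 h repeat 2, CTX KO 6 h repeat 2, MGE KO 0 h repeat 1 or MGE KO 6 h repeat 2. Of these 10 genes, Avpr1a and Prox1 lost their call in this way.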

How the results depend on the processing

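With a replicate block the count of calls at 6 h in MGE KO was 2637 (805 higher, 1832 lower) in place of 2118, and all 120 called genes that could be named stayed called; deviations of same-numbered KO arrays correlated at 0.71 between 0 and 6 h, but 2 numbers do not settle a pairing. The block changed the culture difference to 1404. Fitting only the 4 arrays gave 1332 calls, and taking the probe set with the largest variance gave 101 calls at 1 h. Without a filter the genotype difference had 2 calls. The share of WT late genes called the same way in KO, 56%, was 65.4 with arrays of the same culture type, 57.8 with the largest variance, 53.7 without a filter and 53.4 with an intensity trend. Leaving out each array gave 1008 to 1470 calls at 6 h, 20 to 27 at 1 h, 614 to 818 between 1 and 6 h, 1103 to 5248 in WT, 430 to 1125 for the culture difference, 0 to 693 for the genotype difference, 3174 to 3675 in CTX KO, and a share of 28.5 to 90.3. No gene called at 6 h in MGE KO and eligible for naming changed sign, while uncalled changes near 0 crossed it (Egr1, -0.20 to 0.40 without one array). Cyclic loess moved the median change from -0.07 to -0.03, kept 116 of the 120 calls, and gave 35.8% of calls as higher in place of 28.3%. Of those 120 calls 38 were lost with only the 4 arrays, 17 with the largest variance, 16 with arrays of the same culture type and 11 without a filter. Leaving the WT 0 h arrays out of the fit, chosen after seeing the data, gave 2520 calls. The 2 arrays a group and signals near the array median limit precision.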
